A study of Homo sapiens with 6 samples.

Results

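TFRC encodes transferrin receptor 1, the cell-surface protein through which most cells take up iron. It was examined together with 9 other genes that import, store, export or sense iron (FTH1, FTL, SLC11A2, SLC40A1, IREB2, ACO1, NCOA4, STEAP3 and FBXL5). TFRC was chosen because its transcript was higher after CNN3 knockdown in these same samples, and the other genes were listed for their roles in iron handling. Of the 10 genes, 9 were found by Ensembl identifier among the 48162 genes of the count table, and no value was read for NCOA4, whose GENCODE release 29 identifier had no row. Cells of the established line SiHa, which comes from a human cervical cancer, received either si-CNN3#1, a small interfering RNA (siRNA) directed against CNN3, or the control siRNA si-NC. Each group held 3 samples, which the paper describes as independent assays. Both groups were grown in the same medium, and total RNA was taken 48 h after transfection and sequenced. A single siRNA against CNN3 was sequenced, so that an effect of lower CNN3 and any other effect of that siRNA cannot be told apart.

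Iron bound to transferrin is carried by the receptor into endosomes, where STEAP3 reduces it and SLC11A2 moves it into the cytosol. Ferritin, a shell of FTH1 and FTL chains, stores what is not used, NCOA4 delivers ferritin to lysosomes for release of the iron, and SLC40A1 (ferroportin) exports iron. Cells match uptake to storage through iron-responsive elements (IREs), short RNA hairpins with a bulged C and a loop of CAGUGN. When iron is scarce, the iron regulatory proteins encoded by ACO1 and IREB2 bind these hairpins. Binding in a 3′ UTR protects the TFRC transcript from degradation, whereas binding in a 5′ UTR blocks translation of ferritin and ferroportin. FBXL5 marks the IREB2 protein for degradation when iron is plentiful. The samples give transcript levels only, and neither iron nor protein was measured in them.

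The hairpins of the transcripts measured here are shown because they set apart the genes with 3′ elements from those with 5′ elements. The GENCODE release 29 transcripts of the 10 genes (GRCh38) were searched, on the transcribed strand, for a bulged C, 5 bases, the loop CAGTGN in DNA letters and 5 bases pairing with the first 5, with G-U pairs and at most 1 mismatch allowed. Capitals mark the bulged C and the loop, and each sequence of 29 bases runs 5′ to 3′. TFRC held 4 matches, all in exon 19 of TFRC-201 within the 3′ UTR, on the minus strand of chromosome 3 at chr3:196050979-196051007, chr3:196050575-196050603, chr3:196050510-196050538 and chr3:196050463-196050491.
TFRC site 1: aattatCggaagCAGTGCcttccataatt
TFRC site 2: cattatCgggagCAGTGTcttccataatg
TFRC site 3: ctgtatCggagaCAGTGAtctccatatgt
TFRC site 4: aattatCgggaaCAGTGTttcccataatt
FTH1 and FTL each held 1 match, in exon 1 and the 5′ UTR, at chr11:61967574-61967602 on the minus strand and chr19:48965335-48965363 on the plus strand. SLC40A1 also held 1 match in the 5′ UTR of exon 1, at chr2:189580661-189580689 on the minus strand. The match in SLC11A2 lay in the 3′ UTR, in exon 17, at chr12:50988269-50988297 on the minus strand.
FTH1: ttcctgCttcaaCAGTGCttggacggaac
FTL: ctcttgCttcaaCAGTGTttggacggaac
SLC40A1: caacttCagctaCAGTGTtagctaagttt
SLC11A2: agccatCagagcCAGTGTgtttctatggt

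The matches in TFRC, FTH1, FTL and SLC40A1 had no mismatch in the upper stem. SLC11A2 had 1 mismatch there and paired at 2 of 6 lower stem positions. IREB2 and ACO1 each held 1 match in the 3′ UTR, with 1 mismatch, and none was found in STEAP3, FBXL5 or NCOA4. Of 19684 protein-coding genes, 1.49% held the pattern in a 5′ UTR and 4.60% in a 3′ UTR. With no upper mismatch and at least 4 of 6 lower pairs, a form of the pattern chosen after the matches were seen, the shares were 0.051% and 0.091%. A match describes these letters only and was not measured as binding.

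**Figure D1:**
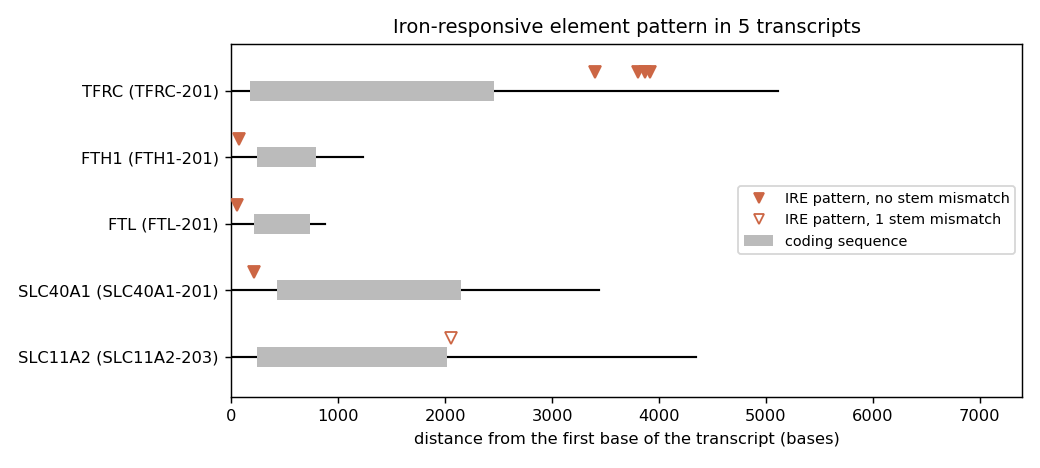
Positions of the iron-responsive element pattern in 5 transcripts, as bases from the transcript's first base (horizontal axis), with the coding sequence in grey, filled triangles for matches without an upper stem mismatch and an open triangle for 1 mismatch. The 4 TFRC matches and the SLC11A2 match follow the coding sequence, and those of FTH1, FTL and SLC40A1 precede it.

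Counts on genes added up to between 18147028 and 19026341 in the si-CNN3#1 samples and between 20287139 and 24976517 in the si-NC samples, so that every control sample was the deeper one. CNN3, the target, checked the labels: it was at 55.2 ± 2.97 CPM (SD, n = 3) in the si-NC samples and at 28.1 ± 2.95 CPM in the si-CNN3#1 samples. CPM are counts relative to a library size adjusted by TMM, a trimmed mean of the log ratios between samples. The iron genes found took 0.394 to 0.402% of all counts with si-CNN3#1 and 0.384 to 0.391% with si-NC. The summed level of 9 epithelial markers was 1421 to 1482 CPM with si-CNN3#1 and 1457 to 1526 CPM with si-NC, with the basal keratin KRT5 at 4 to 11 counts. Of the 8 epithelial markers tested, KRT17 (log2 fold change 0.23) and TP63 (0.68) were higher with si-CNN3#1 in edgeR's test, and KRT8 (-0.19) and KRT18 (-0.18) were lower. Since TFRC is abundant in red cell precursors and iron genes in macrophages, markers of both were counted. The sum of 10 erythroid markers was 13.3 to 14.7 CPM with si-CNN3#1 and 15.3 to 21.8 CPM with si-NC, so that the groups did not overlap. EPOR, the erythropoietin receptor, gave more counts than any other of the 10 in every sample. It was lower with si-CNN3#1 (130 to 142 counts against 175 to 230, log2 fold change -0.31, adjusted p = 0.0296, edgeR). The highest sum was that of si-NC replicate 2. In si-NC replicate 2 the adult globin genes HBB (185 counts, against 0 in the other 5 samples) and HBA2 (35, against 1 to 6) were high, and the fetal globin genes HBG1 (17, against 33 to 50) and HBG2 (37, against 42 to 76) were low. The 6 macrophage and leukocyte markers summed to 123 to 129 and 145 to 156 CPM, nearly all of it CD14 (2190 to 3517 counts, log2 fold change -0.30, lower with si-CNN3#1 in edgeR's test), with PTPRC at 6 to 18 and CD163 at 0 to 2 counts. The 6 fibroblast and endothelial markers found, of 7, summed to 8.05 to 8.18 and 7.15 to 7.70 CPM. The part of these marker levels in the results was not tested.

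The uptake genes did not move together. The TFRC transcript was 130% of the control level with si-CNN3#1, STEAP3 fell, and SLC11A2 did not pass the test. TFRC (ENSG00000072274, chr3:196027183-196082189, minus strand) had 15678, 16024 and 15531 counts in si-CNN3#1 replicates 1, 2 and 3 and 12721, 15941 and 14158 counts in si-NC replicates 1, 2 and 3. Its scaled level was 831, 834 and 851 CPM with si-CNN3#1 and 634, 640 and 656 CPM with si-NC. All si-CNN3#1 samples lay above all si-NC samples, and the spread within each group was small beside the gap between them. The mean of the controls was 644 ± 11.5 CPM (SD, n = 3) and that of the si-CNN3#1 samples 839 ± 10.3 CPM, a log2 fold change of 0.38 (standard error 0.02). Because TFRC was picked on this contrast, these values are a description and carry no test. Without si-NC replicate 2, the sample set apart by its globin counts, the TFRC log2 fold change was 0.38. In bulk RNA, a change in the share of cells that carry a transcript and a change in its amount per cell cannot be told apart.

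TFRC was among the abundant transcripts, and its level in FPKM (counts per unit of gene length, scaled to the sample total) was 500 ± 7.6 with si-CNN3#1 and 379 ± 7.17 with si-NC (SD, n = 3). This put it at rank 175 of all genes with si-CNN3#1 and rank 247 with si-NC. Of the 234 tested genes with a mean of at least 500 CPM, a limit chosen after the values were seen, 81 had a log2 fold change above 0 and none had a larger one than TFRC. Over all tested genes, 718 had a larger one. TFRC was picked for its rise in this same contrast, so its place in these orders is a description and carries no test.

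STEAP3 (ENSG00000115107, chr2:119223831-119265652, plus strand), the endosomal ferrireductase, had 40.0, 37.2 and 36.5 CPM in the si-CNN3#1 samples and 43.1, 46.2 and 44.9 CPM in the si-NC samples. Every si-CNN3#1 sample lay below every control. The means were 37.9 ± 1.86 and 44.7 ± 1.53 CPM (SD, n = 3), so that STEAP3 was at 84.8% of control, and its log2 fold change of -0.24 had a standard error of 0.05 (adjusted p = 0.000364, quasi-likelihood test of edgeR, Benjamini-Hochberg over the 15860 genes tested). STEAP3-AS1, annotated on the opposite strand, had 5 to 15 counts, where STEAP3 had at least 667.

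SLC11A2 (ENSG00000110911, chr12:50979401-51028566, minus strand), the divalent metal transporter of the endosome, had 64.1, 61.9 and 64.8 CPM with si-CNN3#1 and 59.6, 61.1 and 58.5 CPM with si-NC. The groups did not overlap, but the gap between the nearest samples was under 1 CPM. Its log2 fold change of 0.09 (standard error 0.04, 95% interval 0.0091 to 0.17) did not pass the test (adjusted p = 0.154, edgeR). Counts were deposited per gene, so that SLC11A2 transcripts with and without the 3′ element were not separated.

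**Figure D2:**
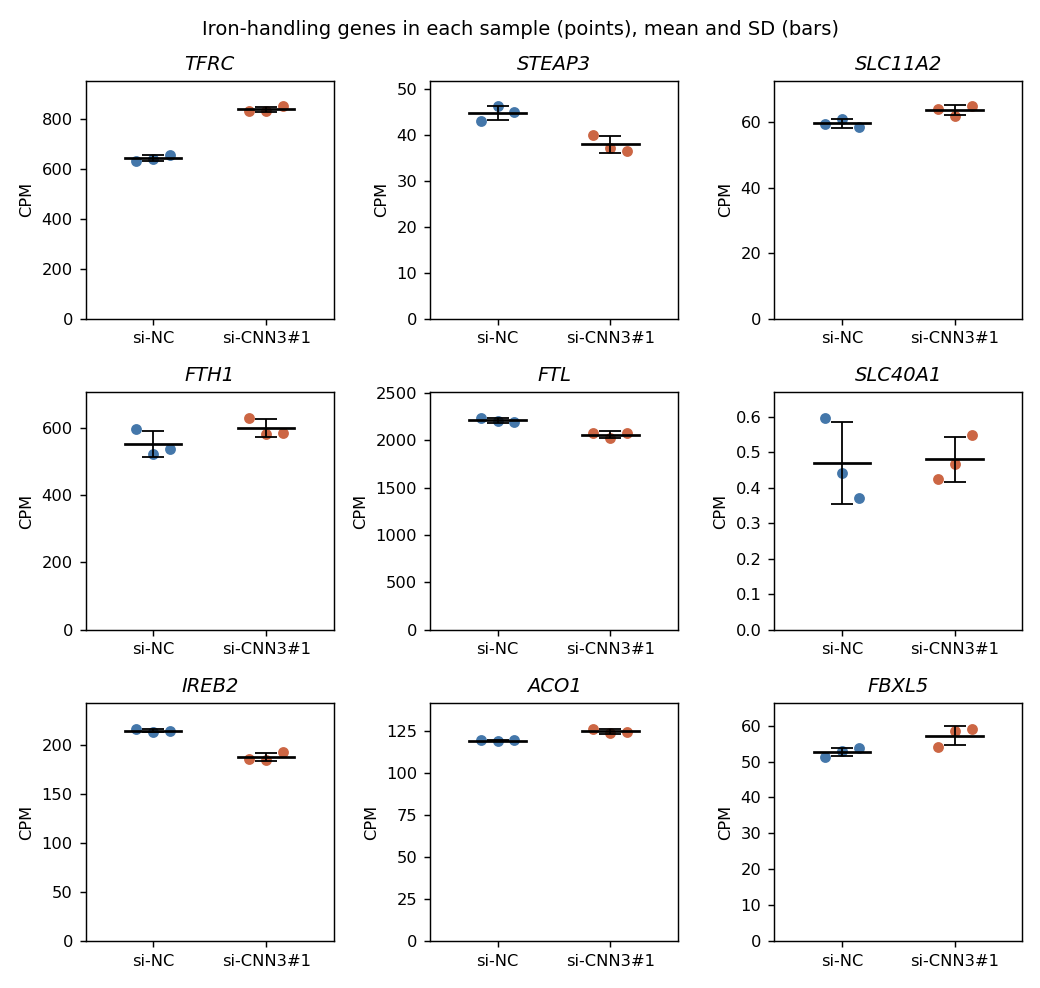
Levels of the 9 iron-handling genes found, in TMM-scaled CPM (vertical axes from 0) for the si-NC and si-CNN3#1 samples, as points with the mean and SD (n = 3). The points of the groups overlap for FTH1 and SLC40A1 and lie apart for the other 7 genes.

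The 2 ferritin chains moved in opposite directions, each by a small amount. FTL, the light chain, fell to 93.2% of control, and FTH1, the heavy chain that carries the ferroxidase activity, was at 109% of control with overlapping groups. FTL (ENSG00000087086, chr19:48965301-48966878, plus strand) had 2076, 2022 and 2080 CPM with si-CNN3#1 and 2238, 2199 and 2191 CPM with si-NC. The lowest control sample was above the highest si-CNN3#1 sample. The log2 fold change was -0.10 with a standard error of 0.02 (adjusted p = 0.00126, edgeR). FTH1 (ENSG00000167996, chr11:61959718-61967660, minus strand) had 630, 581 and 584 CPM with si-CNN3#1 and 595, 522 and 537 CPM with si-NC. Replicate 1 was the highest sample of both groups, and the si-NC replicate 1 sample lay above si-CNN3#1 replicates 2 and 3. The means were 598 ± 27.1 and 551 ± 38.5 CPM (SD, n = 3), and the log2 fold change was 0.12 with a standard error of 0.03 (adjusted p = 0.00474, edgeR). This call depended on the processing: it was lost in 7 of 18 alternatives, with DESeq2 (adjusted p = 0.303), with limma on FPKM, and without si-CNN3#1 replicate 1 or si-NC replicate 2 or 3, when the log2 fold change of FTH1 was 0.08, 0.08 and 0.10. FTL lost its call in 1 of 18 alternatives.

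The ferritin genes have many processed copies in the genome, to which reads could be assigned. The 25 annotated FTH1 pseudogenes held 28 to 37 counts per sample in all, at most 0.319% of FTH1, and the 16 FTL pseudogenes held 4 to 10 counts, at most 0.0211% of FTL. Adding them left the log2 fold changes at 0.12 and -0.10. Summed, FTH1 and FTL reached 2761 ± 62.7 CPM in the controls and 2658 ± 51.6 CPM after si-CNN3#1 (SD, n = 3). BEST1, which overlaps FTH1 on the other strand, had 42 to 72 counts.

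The balance of the chains was also read within each sample, where the scaling between samples has no part. The ratio of FTH1 to FTL in FPKM was 0.345, 0.327 and 0.320 with si-CNN3#1 and 0.303, 0.270 and 0.279 with si-NC. Each si-CNN3#1 sample had a higher ratio than each control. The means were 0.331 ± 0.0131 and 0.284 ± 0.0168 (SD, n = 3), a log2 difference of 0.22 (p = 0.1 in an exact two-sided permutation test, the lowest value that this design can reach). The ratio of TFRC to FTH1, given without a test, was 0.642 ± 0.0333 with si-CNN3#1 and 0.536 ± 0.0420 with si-NC. The 3 ratios with si-CNN3#1 were 0.604, 0.656 and 0.665, and those with si-NC were 0.487, 0.560 and 0.559.

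**Figure D3:**
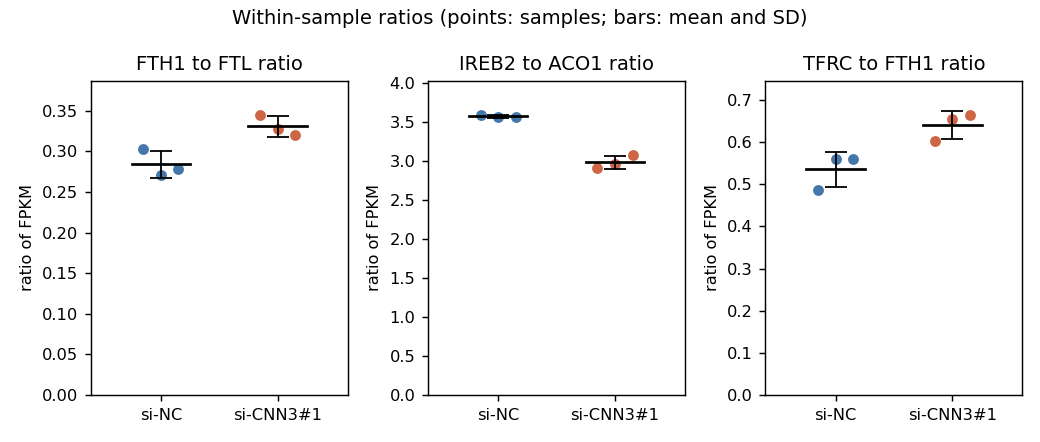
Within-sample ratios of FPKM for FTH1 to FTL, IREB2 to ACO1 and TFRC to FTH1 (vertical axes from 0), with 1 point per sample and the mean and SD (n = 3) for si-NC and si-CNN3#1. The groups do not overlap in any of the 3 ratios, and the IREB2 to ACO1 ratio is the one that is lower with si-CNN3#1.

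SLC40A1 (ENSG00000138449, chr2:189560579-189583758, minus strand), the iron exporter, was hardly detected in these cells. Its counts were 8, 9 and 10 in the si-CNN3#1 samples, against 12, 11 and 8 in the controls. The groups overlapped, and the gene fell below the filter on low counts, so that a difference was not detectable at this depth. HAMP, the hormone hepcidin that brings ferroportin to degradation, had 1 to 3 counts in each sample.

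Of the regulators, IREB2 fell, and ACO1 and FBXL5 did not pass the test. IREB2 (ENSG00000136381, chr15:78437431-78501456, plus strand), which encodes iron regulatory protein 2, had 186, 185 and 193 CPM with si-CNN3#1 and 217, 214 and 215 CPM with si-NC. All controls exceeded all si-CNN3#1 samples. The means were 188 ± 4.34 and 215 ± 1.64 CPM (SD, n = 3), or 87.4% of control, and the log2 fold change of -0.19 had a standard error of 0.03 (adjusted p = 5.36e-07, edgeR). The call held in all 17 alternatives, with log2 fold changes between -0.21 and -0.18. The antisense gene AC027228.1 within IREB2 had 0 to 5 counts.

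The sequences of the siRNAs were set beside the 3′ UTRs of the iron genes, since an siRNA can lower transcripts that hold a match to bases 2 to 8 of its guide strand. The sense strands are shown 5′ to 3′ with that match in capitals.
si-CNN3#1: gcagaugggaaCCAACAAatt
si-NC: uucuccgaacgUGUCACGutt
In the longest annotated 3′ UTR of each of the 10 genes, CCAACAA was found 1 time in IREB2 and in none of the other 9. It was found in 8.67% of 19145 genes with a 3′ UTR. The si-NC site TGTCACG was found in none of the 10 and in 2.69% of all. The part of the match in the lower IREB2 level was not tested.

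ACO1 (ENSG00000122729, chr9:32384603-32454769, plus strand), which encodes iron regulatory protein 1 and serves as cytosolic aconitase when it carries an iron-sulfur cluster, had 126, 124 and 124 CPM with si-CNN3#1. The controls had 119 CPM each. The groups were apart by a narrow margin, with means of 125 ± 1.32 and 119 ± 0.402 CPM (SD, n = 3). The log2 fold change was 0.07 with a standard error of 0.03 (95% interval 0.0034 to 0.13, adjusted p = 0.183, edgeR), short of the threshold. The ratio of IREB2 to ACO1 in FPKM was 2.92, 2.96 and 3.08 with si-CNN3#1 and 3.6, 3.57 and 3.57 with si-NC, a log2 difference of -0.26 (p = 0.1 in the same exact permutation test). The ratio was lower in every si-CNN3#1 sample than in any control.

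FBXL5 (ENSG00000118564, chr4:15604539-15681679, minus strand) had 54.1, 58.4 and 59.2 CPM with si-CNN3#1 and 51.3, 52.9 and 53.7 CPM with si-NC. The lowest si-CNN3#1 sample exceeded the highest control by under 1 CPM. Its log2 fold change of 0.12 (standard error 0.04, 95% interval 0.033 to 0.21) had an adjusted p of 0.0621 in edgeR's test and passed the threshold in 4 of 17 alternatives, among them the one without si-CNN3#1 replicate 1. FAM200B overlaps FBXL5 on the opposite strand with 455 to 629 counts, against at least 1020 for FBXL5. Whether reads were counted by strand is not given in the sources used here, so that reads of the overlapping stretch cannot be assigned to one of them.

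Leaving aside TFRC, whose place the choice had fixed, 4 of the 7 other iron genes tested passed the threshold, 1 higher (FTH1) and 3 lower (FTL, IREB2 and STEAP3). Among all 15860 genes tested, 13.3% passed, 6.17% higher and 7.14% lower. The groups were apart in 6 of the 7, 3 with si-CNN3#1 above (SLC11A2, ACO1 and FBXL5) and 3 with it below. Groups were apart in 28.2% of all tested genes, 13.9% with si-CNN3#1 above and 14.3% with it below. The log2 fold changes of the 7 ran from -0.24 to 0.12 with a median of 0.07, beside a median of 0.0023 over all genes tested. The list is short and was drawn up with earlier results of these data known, so that these counts describe it and no more.

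**Figure D4:**
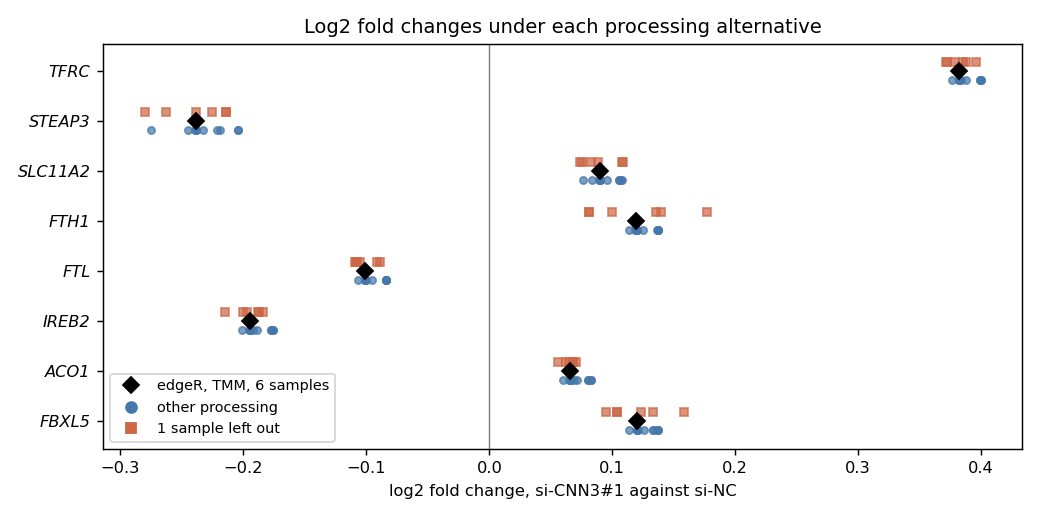
Log2 fold changes (si-CNN3#1 against si-NC, horizontal axis) of the 8 tested iron-handling genes with edgeR on all 6 samples (diamonds), under other processing (circles) and with 1 sample left out (squares). No gene crosses 0, and FTH1 spans 0.08 to 0.18 while TFRC spans 0.37 to 0.40.

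The order of the transcript levels was the same in both groups at its upper end. In the deposited FPKM, which divide by gene length, FTL stood at 2498 ± 22.4, FTH1 at 710 ± 47.1, TFRC at 379 ± 7.17 and IREB2 at 118 ± 0.484 in the si-NC samples (SD, n = 3). SLC11A2 followed at 40.2 ± 1.00, FBXL5 at 33.5 ± 0.836 and ACO1 at 33.0 ± 0.0229, with FBXL5 and ACO1 overlapping in both groups. STEAP3 had 13.6 ± 0.517 and SLC40A1 0.462 ± 0.113. The FPKM hold 1 length per gene, 1687 bases for TFRC and 1476 for SLC11A2, where the merged exons of GENCODE release 29 cover 7887 and 10145 bases. Per kilobase of merged exons, an alternative added after the data were seen, FTL, FTH1, TFRC and IREB2 kept their places and SLC11A2 moved from the fifth place to the eighth. Levels between genes thus depended on the length used, and the differences between the groups did not.

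The genes whose profile over the 6 samples was most like that of TFRC were found by the root mean square difference of log2 CPM, each gene centred on its own mean, over 9787 genes with a mean of at least 10 CPM, the iron-handling genes themselves left out. They were BTF3L4 (0.0202), ABL2, a tyrosine kinase (0.0237), NFKB2, an NF-kappa-B subunit (0.0256), PDP1, the pyruvate dehydrogenase phosphatase (0.0294), and ABCA5, a membrane transporter (0.0315). Their log2 fold changes were 0.36, 0.40, 0.37, 0.34 and 0.36. None of the 5 is in the 7 role lists described next, and the measure follows the contrast on which TFRC was picked.

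The other genes of iron metabolism were taken from 7 lists by role, 91 genes in all, of which 83 were tested. Of these, 13 rose, 8 fell and 62 did not pass, with a median log2 fold change of 0.0021, where 13.3% of all genes passed. With total-count scaling the split was 15 higher and 4 lower, and that of all genes was 1294 higher and 863 lower in place of 978 and 1133. The groups were apart in 34 of the 83, beside 28.2% of all tested genes. DESeq2 called 9 of them, and leaving out si-NC replicate 2, si-NC replicate 3 or si-CNN3#1 replicate 1 left 12, 12 and 13.

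In iron uptake and endosomal release, 3 of 10 tested genes rose and none fell, where 6.17% of all genes rose and 7.14% fell. SLC39A14, a zinc and iron importer of the plasma membrane, went from 115 ± 1.33 CPM in the controls to 134 ± 2.39 CPM (SD, n = 3), and its log2 fold change was 0.22 with a standard error of 0.03 (adjusted p = 6.21e-07, edgeR). LCN2, a secreted protein that binds iron-loaded siderophores, was low, at 4.39 ± 0.164 and 2.96 ± 0.203 CPM with si-CNN3#1 and si-NC (log2 fold change 0.57 with a standard error of 0.15, adjusted p = 0.00468). Both calls held in every alternative that gave a value. SLC39A8, the importer related to SLC39A14, rose by 0.10 (adjusted p = 0.0257). Its call was lost in 7 of 17 alternatives (0.08 to 0.13), among them without si-CNN3#1 replicate 1 or 2 or si-NC replicate 1 or 3. TF, transferrin itself, had 0 to 5 counts. TFR2, the second transferrin receptor, had a log2 fold change of -0.14 (adjusted p = 0.152), and HFE, the partner of both receptors, of -0.11 (adjusted p = 0.297).

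In the traffic of the transferrin receptor, 3 of 10 tested genes rose and none fell (6.17% and 7.14% over all genes). PICALM, a clathrin adaptor at coated pits, went from 166 ± 3.95 to 182 ± 3.35 CPM (SD, n = 3) with a log2 fold change of 0.13 (adjusted p = 0.00114, edgeR), and the call held in all alternatives. The recycling genes RAB11A (0.10, adjusted p = 0.0274) and EHD1 (0.10, adjusted p = 0.0448) lost their calls in 7 and 8 of 17 alternatives. RAB11A lost it without si-CNN3#1 replicate 3 or si-NC replicate 1 or 2 (0.06 to 0.13 over all alternatives), and EHD1 without si-CNN3#1 replicate 1 or any si-NC replicate (0.07 to 0.11). The median log2 fold change of the list was 0.06. CLTC, the clathrin heavy chain, was at 0.04 (adjusted p = 0.322).

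None of the 8 tested genes of storage, iron chaperoning and export control passed edgeR's test, which 13.3% of all genes passed. Nor did any of the 6 with an adjusted p in DESeq2 pass there. At an unadjusted p under 0.05, edgeR gave 1, the ferroxidase gene CP (log2 fold change 0.25, unadjusted p = 0.0248), which is named after its value was seen. The most abundant were PCBP2, an iron chaperone (0.03, adjusted p = 0.501), and HERC2, a ubiquitin ligase (-0.01, adjusted p = 0.884). FTMT, mitochondrial ferritin, had no count in any sample.

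Of the other transcripts known for an iron-responsive element, 5 were tested. Of these, 1 rose and 1 fell, where 13.3% of all genes passed in either direction. CDC42BPA, a kinase, rose by 0.10 (adjusted p = 0.0117, edgeR) and EPAS1, the hypoxia-inducible factor 2 alpha subunit, changed by -0.09 (adjusted p = 0.0232). The calls were lost in 5 and 10 of 17 alternatives. CDC42BPA lost it without si-CNN3#1 replicate 2 or si-NC replicate 1 (0.09 to 0.12 over all alternatives), and EPAS1 without any 1 sample other than si-CNN3#1 replicate 1 (-0.13 to -0.07). The pattern searched above was found in ALAS2 and CDC14A of this list and in none of the other 4. ALAS2, the erythroid form of the first heme enzyme, had 0 to 8 counts.

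Among 9 genes that act on the iron regulatory proteins or on the TFRC transcript, 1 rose and 1 fell, where 13.3% of all genes passed in either direction. RC3H2 (roquin 2), an RNA-binding protein that destabilises transcripts with stem-loops, had 175 ± 0.550 CPM with si-CNN3#1 and 159 ± 3.54 CPM with si-NC (SD, n = 3), with a log2 fold change of 0.14 (adjusted p = 0.000474, edgeR). MYC, a transcription factor known to raise TFRC, was at 120 ± 4.35 and 136 ± 4.80 CPM, with a log2 fold change of -0.18 (adjusted p = 5.03e-05). The RC3H2 call held in all 17 alternatives and that of MYC in all but 1. ZC3H12A, the nuclease known to cut the TFRC 3′ UTR, RC3H1 (roquin 1) and HIF1A had log2 fold changes of 0.02, 0.01 and 0.02 (adjusted p = 0.892, 0.890 and 0.654).

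In iron-sulfur cluster assembly, 2 of 23 tested genes rose and 3 fell, against 6.17% and 7.14% of all genes. FDX1, a mitochondrial ferredoxin, fell from 50.9 ± 1.42 to 43.4 ± 0.965 CPM (SD, n = 3), a log2 fold change of -0.23 (adjusted p = 0.000214, edgeR). FDX2 of the same list had 0 to 3 counts and was not tested. FDXR, the reductase that feeds electrons to FDX1, had -0.19 (adjusted p = 0.0296), is named after its value was seen, and lost its call in 9 of 17 alternatives. Of the cytosolic machinery, CIAO1 fell (-0.14, adjusted p = 0.00549), while CIAPIN1 (0.11, adjusted p = 0.00831) and CIAO3 (0.18, adjusted p = 0.0197) rose. CIAO3 lost its call in 7 of 17 alternatives (0.13 to 0.24), and CIAO1 and CIAPIN1 in 2 each. The samples whose omission ended a call were si-CNN3#1 replicates 1 and 3 and si-NC replicate 2 for CIAO3, these and si-NC replicate 3 for FDXR (-0.25 to -0.15), si-NC replicate 3 for CIAO1 (-0.15 to -0.12) and si-NC replicate 2 for CIAPIN1 (0.09 to 0.12).

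In heme synthesis, transport and breakdown, 3 of 18 tested genes rose and 3 fell, with a median of -0.05. Over all genes tested these shares were 6.17% and 7.14%. FECH, which inserts iron into the porphyrin ring, had a log2 fold change of -0.14 (adjusted p = 0.0307, edgeR), CPOX -0.12 (adjusted p = 0.0234) and UROS 0.14 (adjusted p = 0.0235), all 3 being enzymes of the pathway. FLVCR1, described as a heme exporter, fell by 0.18 (adjusted p = 0.00788). HMOX1, the inducible heme oxygenase that frees iron from heme, had 35.8 ± 3.41 and 31.8 ± 0.948 CPM (SD, n = 3), with a log2 fold change of 0.17 (adjusted p = 0.0327). ABCB6, a porphyrin transporter named after its value was seen, had 18 to 33 counts with si-CNN3#1 and 10 to 26 with si-NC (log2 fold change 0.91, adjusted p = 0.0368). These 6 calls were lost in 4 to 10 alternatives each. Omitting 1 sample ended the call of FLVCR1 for si-CNN3#1 replicate 3 (-0.23 to -0.14 over all alternatives) and that of the other 5 for 4 or 5 of the 6 samples, si-NC replicate 3 among them each time. The ranges were -0.16 to -0.11 for FECH, -0.15 to -0.10 for CPOX, 0.11 to 0.16 for UROS, 0.10 to 0.24 for HMOX1 and 0.41 to 1.39 for ABCB6.

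**Figure D5:**
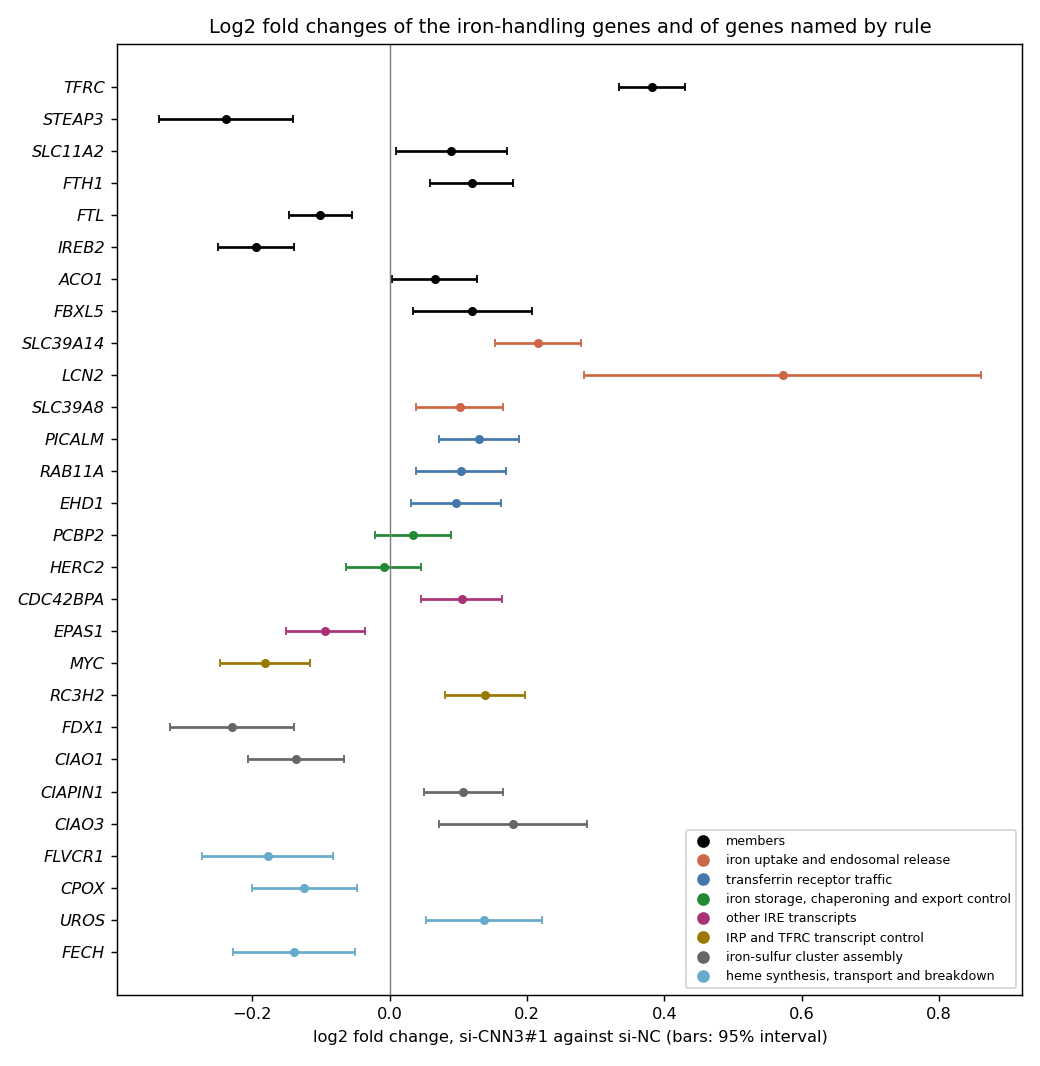
Log2 fold changes of the 8 tested iron-handling genes (black) and of the genes of the 7 role lists named by rule (coloured by list), si-CNN3#1 against si-NC, with bars of 95% intervals. Apart from TFRC at 0.38 and LCN2 at 0.57, the points lie between -0.24 and 0.22.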

How the data were processed

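Total RNA of SiHa cells, 3 samples per group, was sequenced from TruSeq libraries. The authors deposited the raw counts of each Ensembl gene in each sample. The deposited FPKM divide the same counts by 1 length per gene and by the total of the sample. The submitters' processing notes name TopHat2 2.0.9, Bowtie2 2.0.6, HTSeq and DESeq 1.10.1. The genome build and strand setting are not given in the sources used here. Groups came from the sample titles. Genes were named from GENCODE release 29 (GRCh38; 45342 identifiers matched, 2820 did not).

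Counts were tested with edgeR 4.0.16 in R 4.3.3, by its quasi-likelihood test after TMM scaling and filterByExpr, with no covariate, Benjamini-Hochberg adjustment over 15860 genes and a threshold of 0.05. The common relative spread between samples of a group beyond counting noise, as estimated by edgeR, was 0.0232. Standard errors were worked back from each log2 fold change and its test statistic. The 95% intervals use a normal factor and are not adjusted over genes. An interval can therefore lie wholly above no change where the adjusted test does not pass. Ratios were tested by exact permutation. Alternatives were RLE, upper-quartile and total-count scaling, DESeq2 1.42.0, no low-count filter, at least 10 counts in every sample, a replicate block, thinning to the smallest total, limma 3.58.1 on FPKM (log2 after adding 1 or 0.1, which understates low genes; genes of mean FPKM 1 or more, or all), and each sample left out in turn. No samples were merged, since pairs within a group differed beyond counting noise (chi-square divided by its degrees of freedom 1.52 to 1.90). On simulated counts, edgeR recovered 87% of genes changed by 0.5 and 100% of those changed by 1 on the log2 scale, with 7 false calls among 15848 genes. The simulation gave all genes the same relative spread between samples and no change smaller than 0.5. It therefore does not cover smaller changes, such as those of FTH1 and FTL, or genes that vary more.

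The members and lists were chosen with earlier results of these data known. Named are all members, CNN3, the 5 genes nearest to TFRC, up to 4 called genes of smallest adjusted p in each list (otherwise the 2 highest by FPKM), and TF, TFR2, HFE, HAMP, ALAS2, ZC3H12A, RC3H1, MYC, HIF1A, EPAS1 and HMOX1. One erythroid marker is not reported here, and the sum over the other 10 was added after the data were seen.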

Additional observations from a re-analysis of the deposited data

How the results depend on the processing

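No value of the 8 tested iron-handling genes changed direction under any alternative. The log2 fold change of TFRC lay between 0.37 and 0.40 with 1 sample left out. The median over the other tested iron genes was 0.07, and it was 0.083 with total-count scaling, 0.080 and 0.082 with limma on log2(FPKM + 1) and log2(FPKM + 0.1), 0.080 without the FPKM filter, and 0.06 to 0.07 with 1 sample left out. Without TFRC, 4 of the 7 other iron genes passed with edgeR, 1 with limma without a filter and 3 to 4 with 1 sample left out. Counted with TFRC, whose place the choice had fixed, these were 5, 2 and 4 to 5. In the role lists 21 genes passed, against 9 with DESeq2, 11 and 11 with limma at both pseudocounts and 4 without its filter. With 1 sample left out 12 to 17 passed, the fewest without si-NC replicate 2 or si-NC replicate 3 (12 each) or si-CNN3#1 replicate 1 (13). Over all genes 2111 passed, against 1246 with DESeq2, 1363, 1353 and 585 with limma, and 1551 to 1747 with 1 sample left out. With limma on log2(FPKM + 1), 799 genes were higher and 564 lower, and in the role lists 8 and 3. The cause of these differences was not tested.

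Replicate numbers are shared between the groups, but no source ties them to a batch, and the deviations of same-numbered samples correlated at 0.077, 0.129 and 0.102, so the numbers were not taken to pair the samples, although 6 of 6 samples correlated best with their own number. With a replicate block, the log2 fold change of TFRC was 0.38, and 5 of the 7 other iron genes (FBXL5 added; 6 with TFRC), 25 genes of the role lists and 2727 genes in all passed. The ratios under pairing gave an exact p of 0.25, the smallest possible. Without 1 sample the log2 differences ranged from 0.19 to 0.27 for FTH1 to FTL, from -0.28 to -0.24 for IREB2 to ACO1 and from 0.20 to 0.31 for TFRC to FTH1. At this depth SLC40A1, TF, HAMP and ALAS2 were too low to be compared.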
